A study of Mus musculus with 12 samples.

Results

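Accessible chromatin at 30 imprinted genes was followed through mitosis by ATAC-seq in mouse ESCs with and without the Suv39h enzymes. The genes were taken as a fixed list, and they are 30 of the 31358 protein-coding and long noncoding genes of the annotation that were examined in the same way. Imprinted genes are expressed from the maternal or the paternal allele alone. The choice is set by DNA methylation laid down in the egg or the sperm at differentially methylated regions (DMRs), which lie at the starts of many of these genes. In ESCs the zinc finger protein Zfp57 binds the hexamer TGCCGC on the methylated allele and recruits Trim28 and the H3K9 methyltransferase Setdb1. The peak lists carry no allelic information, so the imprint itself could not be checked in them.

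ATAC-seq inserts sequencing adapters into open DNA, and a peak is a place where more fragments pile up than in the background. The libraries came from a male WT line (WT26) and a male Suv39h dn line (DN57), the latter lacking both Suv39h1 and Suv39h2, the enzymes that trimethylate H3K9 at constitutive heterochromatin. Each genotype was represented by 1 line, grown with serum and LIF, and was assayed in 3 preparations. Asynchr libraries used nuclei of growing cells, Mitotic libraries used cells arrested with 0.1 µg/ml demecolcine for 6 h, and Chromosomes libraries used flow-sorted mitotic chromosomes released from such cells. There were 2 libraries in each of the 6 groups and 12 in all, and the labels do not say that the pair came from separate cultures, so that p-values measure the spread between these libraries alone.

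The lists held 22344 to 80602 peaks in asynchronous cells, 1746 to 14328 in mitotic cells and 44885 to 67027 on sorted chromosomes. The shortest was Suv39h dn Mitotic replicate 1. A list holds no reads, but the whole number of fragments at each summit follows from the deposited fold and p-value, and its median was 5 to 8 per library. A missing peak means that the fragments found there did not pass the caller's threshold, not that the site was closed. The lowest background in a list stands for relative depth. It was 0.149 to 0.306 fragments per base in asynchronous cells, 0.204 to 0.239 in mitotic cells and 0.187 to 0.328 on chromosomes. Among asynchronous libraries it was 0.149 and 0.172 in the first replicates of WT and Suv39h dn, with 22344 and 25074 peaks. The second replicates had 0.306 and 0.304, with 56897 and 80602 peaks. Whether depth set the length of the lists was not tested. Of 10 ESC markers, 7 to 10 had a promoter peak in the asynchronous libraries, against 0 to 3 of 7 fibroblast or feeder markers. Of 3 endoderm markers 1 to 3 had one (a mean of 75.0%, beside 87.5% of the ESC markers and 38.8% of all genes), and of 3 trophoblast markers 1 or 2 (41.7%). In mitotic cells the means were 40.0% of ESC, 8.33% of endoderm, 8.33% of trophoblast and 0% of fibroblast or feeder markers, beside 16.0% of all genes. On chromosomes they were 67.5%, 83.3%, 50.0% and 32.1%, beside 40.3%, so ESC markers did not rank first there. A gene was called in a library when a peak summit lay within 2 kb of any of its annotated transcript starts, which is termed a promoter peak here, and coordinates are those of mm10.

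Of the 30 imprinted genes, 27 had a promoter peak in at least 1 library, as did 22317 of the 31358 genes examined. In asynchronous cells 12 and 19 were called in WT libraries against 9 and 23 in Suv39h dn libraries. In both genotypes the first replicate, with the shorter list and the lower background, had the lower number. In mitotic cells the numbers were 4 and 8 in WT against 2 and 7 in Suv39h dn, and no mitotic library reached the lowest asynchronous one. On sorted chromosomes they were 16 and 18 in WT against 17 and 15 in Suv39h dn. The means were 15.75 ± 6.4, 5.25 ± 2.75 and 16.5 ± 1.29 genes (SD, n = 4), or 52.5%, 17.5% and 55.0% of the list, beside 38.8%, 16.0% and 40.3% of all genes. The imprinted genes have a median of 4.5 annotated starts against 2 for all genes, which gives them more places for a summit to count. They lay above the share of all genes in every Asynchr and Chromosomes library, and on either side of it in the mitotic libraries. Beside protein-coding genes alone, Suv39h dn Asynchr replicate 1 lay below, with 30.0% of the list against 34.3%. The other Asynchr libraries and the Chromosomes libraries stayed above that share.

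**Figure D1:**
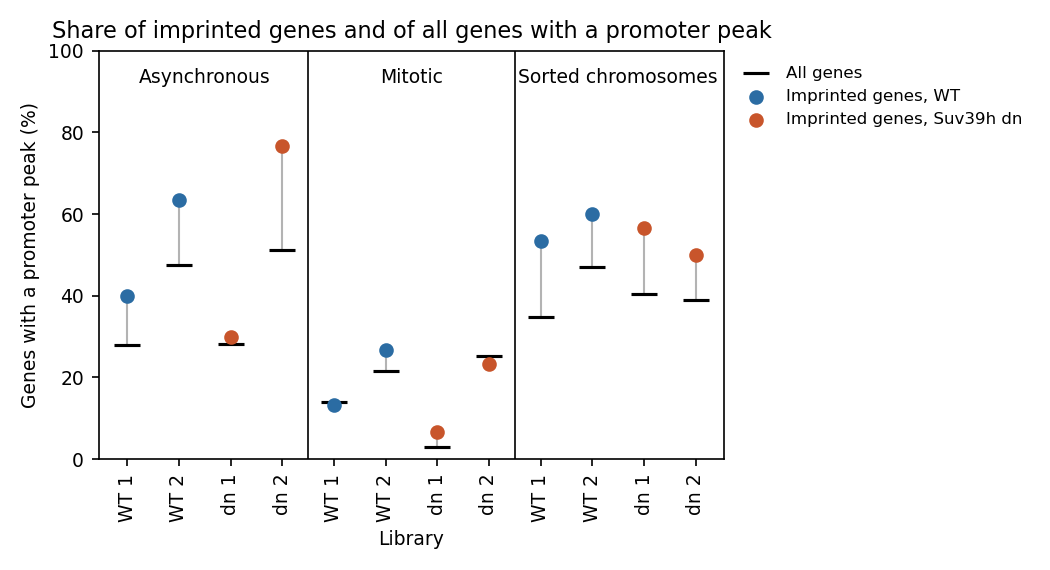
Percentage of genes with a promoter peak (vertical axis) in each of the 12 libraries (horizontal axis), with points for the 30 imprinted genes, coloured by genotype, and black bars for all 31358 genes. The points stand above the bars in the 4 asynchronous and the 4 chromosome libraries and lie between 6.67% and 26.7% in the mitotic libraries.

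The length of the lists moved with these numbers. When the asynchronous and chromosome lists were all shortened by p-value to 22344 peaks, 12 imprinted genes were called in each of the 4 chromosome libraries, and 12, 8, 9 and 8 in the asynchronous libraries. The share of all genes then ran the other way, from 22.2% to 26.1% on chromosomes and from 26.5% to 29.0% in asynchronous cells. With the mitotic lists in the comparison the shortening left 1746 peaks, and 0 to 2 of the imprinted genes were called in any library, beside 1.52% to 4.53% of all genes.

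**Figure D2:**
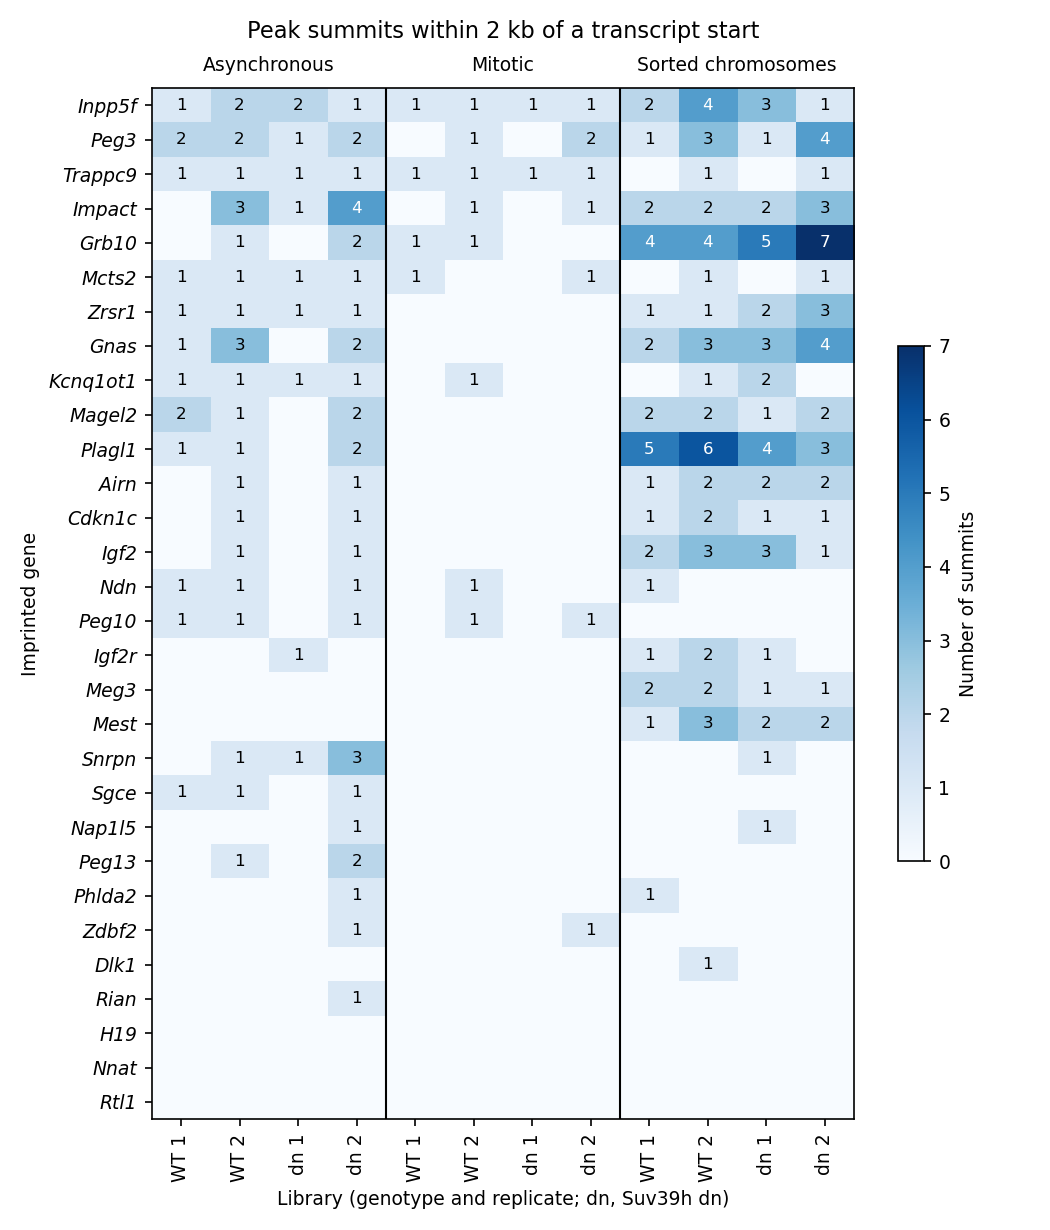
Number of peak summits within 2 kb of a transcript start for each imprinted gene (rows, ordered by the number of libraries with a peak) in each library (columns, grouped by preparation, dn for Suv39h dn). Inpp5f is filled in all 12 columns, Mest and Meg3 only in the 4 chromosome columns, and the rows of H19, Nnat and Rtl1 are empty.

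Few promoters had a peak in every library of the cells, and more had one in every chromosome library. A promoter peak in all 4 asynchronous libraries was found for 6 of the 30 genes (20%, beside 19.7% of all genes), namely Kcnq1ot1, Peg3, Zrsr1, Trappc9, Inpp5f and Mcts2. All 4 mitotic libraries had a peak at Trappc9 and Inpp5f (6.67%, beside 1.77% of all genes). All 4 chromosome libraries had a peak at 13 of the genes (43.3%, beside 19.5% of all genes), which were Igf2, Cdkn1c, Peg3, Magel2, Mest, Plagl1, Gnas, Meg3, Airn, Grb10, Zrsr1, Impact and Inpp5f. The peak of a gene did not always lie at the same place in these libraries. Of protein-coding genes alone, 24.4%, 2.25% and 24.4% had a peak in all 4 libraries of asynchronous cells, mitotic cells and chromosomes. In lists of 22344 peaks, 4 imprinted genes had a peak in all 4 asynchronous libraries, beside 15.6% of all genes. In all 4 chromosome libraries there were 8, beside 8.01%.

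Inpp5f, which encodes a phosphoinositide phosphatase, was the only member called in all 12 libraries (3.33%, beside 0.947% of all genes). The gene lies at chr7:128611328-128696425, and its imprinted transcript starts inside it rather than at its first start. The peak stood at the first start. Its strongest promoter summit held 9 and 21 fragments in WT against 12 and 20 in Suv39h dn asynchronous cells, and 11 and 15 in WT against 10 and 15 in Suv39h dn chromosomes. In mitotic cells it held 10 and 10 fragments in WT against 4 and 10 in Suv39h dn. In 11 of the libraries this summit lay 31 to 266 bp upstream of the first start, while in Suv39h dn Mitotic replicate 1 the only promoter summit lay at position 128690369, 1880 bp past an internal start. On chromosomes it ranked at percentile 96.4 to 98.8 of the genes with a promoter peak, by p-value, and in asynchronous cells at percentile 73.7 to 91.7. In mitotic cells it ranked at percentile 73.2 to 92.2, apart from Suv39h dn replicate 1 at 0.944. These ranks come from lists of unequal length. A second region in asynchronous cells, chr7:128688392-128688561, lay 66 bp upstream of an internal start and was called in 2 libraries.

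Trappc9, which encodes a subunit of a trafficking complex and encloses the imprinted noncoding gene Peg13, had a promoter peak in all 8 cell libraries. At the start of the gene (chr15:72589620-73061204, minus strand) the summit lay between 48 bp upstream and 48 bp downstream in those libraries. It held 10 and 35 fragments in WT against 10 and 30 in Suv39h dn asynchronous cells, and 4 and 12 in WT against 6 and 13 in Suv39h dn mitotic cells. On chromosomes the region at the start was called in 0 of 4 libraries. A summit of 11 fragments in WT replicate 2 and of 4 in Suv39h dn replicate 2 lay 485 and 569 bp downstream of the start of the gene instead, and the first replicates had none.

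Mcts2, an intronless retrogene within an intron of H13, was likewise called at its start in cells and elsewhere on chromosomes. In asynchronous cells its summit held 5 and 10 fragments in WT against 7 and 12 in Suv39h dn, 96 to 205 bp upstream of the start (gene at chr2:152687035-152687946). Mitotic WT replicate 1 had 5 fragments and Suv39h dn replicate 2 had 7, at 217 and 196 bp upstream, and the other mitotic libraries had no peak. The chromosome summits in WT replicate 2 and Suv39h dn replicate 2, of 8 and 6 fragments, lay 1861 and 1726 bp downstream of the start, past the end of the gene.

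Kcnq1ot1, the antisense RNA that silences its neighbours, including Cdkn1c, on the paternal chromosome, starts at a maternally methylated region. The gene (chr7:143203458-143296549, minus strand) has 1 annotated start, and the summit lay 74 to 161 bp upstream of it in asynchronous cells. It held 7 and 11 fragments in WT against 4 and 9 in Suv39h dn. In mitotic cells WT replicate 2 alone had a peak, of 7 fragments. On chromosomes WT replicate 2 had 7 fragments, 48 bp upstream of the start, and Suv39h dn replicate 1 had 3 in a separate region, 277 bp upstream. The region at the start was thus called in 4 of 4 asynchronous, 1 of 4 mitotic and 1 of 4 chromosome libraries.

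Zrsr1, a splicing factor gene in an intron of Commd1, was the only imprinted gene with a peak in 4 of 4 asynchronous and 0 of 4 mitotic libraries (3.33%, beside 2.00% of all genes). The asynchronous summits lay 33 to 91 bp upstream of the start (gene at chr11:22972005-22976496) and held 5 and 11 fragments in WT against 5 and 8 in Suv39h dn. All 4 chromosome libraries had a peak, of 7 and 12 fragments in WT against 7 and 11 in Suv39h dn, but at another place, 414 to 734 bp downstream of that start. Every one of these promoter summits was also within 2 kb of a start of Commd1.

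The following sequences are from the GRCm38 reference, plus strand, up to 150 bp to either side of the strongest asynchronous summit, and are shown because these regions were called in all 4 asynchronous libraries and, Inpp5f apart, in at most 1 chromosome library. Annotated UTRs were left out, which shortens some of them, and capitals mark the Zfp57 hexamer on either strand (TGCCGC or GCGGCA).
Inpp5f, chr7:128611101-128611359: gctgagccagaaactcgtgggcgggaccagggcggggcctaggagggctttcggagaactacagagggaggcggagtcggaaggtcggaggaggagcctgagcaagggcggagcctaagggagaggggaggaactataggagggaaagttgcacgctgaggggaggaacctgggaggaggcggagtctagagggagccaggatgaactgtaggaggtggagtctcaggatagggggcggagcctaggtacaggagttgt
Trappc9, chr15:73061205-73061379: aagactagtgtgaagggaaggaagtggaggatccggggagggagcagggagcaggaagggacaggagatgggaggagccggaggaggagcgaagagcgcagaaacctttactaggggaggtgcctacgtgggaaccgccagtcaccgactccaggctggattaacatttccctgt
Mcts2, chr2:152686702-152686979: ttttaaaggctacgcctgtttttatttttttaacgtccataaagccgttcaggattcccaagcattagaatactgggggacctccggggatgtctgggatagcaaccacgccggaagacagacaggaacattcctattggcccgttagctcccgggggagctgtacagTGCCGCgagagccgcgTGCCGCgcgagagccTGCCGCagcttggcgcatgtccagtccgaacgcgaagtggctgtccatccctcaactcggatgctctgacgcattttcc
Kcnq1ot1, chr7:143296473-143296772: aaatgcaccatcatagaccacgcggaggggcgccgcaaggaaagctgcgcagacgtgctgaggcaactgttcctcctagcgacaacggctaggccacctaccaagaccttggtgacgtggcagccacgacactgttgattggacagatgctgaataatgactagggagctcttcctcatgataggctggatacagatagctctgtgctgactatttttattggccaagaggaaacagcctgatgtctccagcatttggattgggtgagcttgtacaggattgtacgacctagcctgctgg
Zrsr1, chr11:22971821-22972004: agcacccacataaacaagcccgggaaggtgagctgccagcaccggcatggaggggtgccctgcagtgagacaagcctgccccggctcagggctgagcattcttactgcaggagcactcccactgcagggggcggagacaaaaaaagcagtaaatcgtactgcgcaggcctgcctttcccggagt
Mcts2 carries 3 hexamers and 22 CpGs in this stretch. The other stretches shown carry no hexamer and 7 to 11 CpGs. A region of Peg3, chr7:6728238-6728866, was also called in 4 asynchronous and 0 chromosome libraries and is not shown. It carries 1 hexamer and 9 CpGs in the 300 bp around its strongest summit.

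Peg3, a zinc finger gene of chr7:6703892-6730431 on the minus strand, had peaks in all asynchronous and chromosome libraries and in 2 of 4 mitotic libraries. Its strongest summit held 9 and 15 fragments in WT against 6 and 20 in Suv39h dn asynchronous cells. On chromosomes it held 8 and 15 in WT against 8 and 11 in Suv39h dn. In mitotic cells WT replicate 2 had 9 and Suv39h dn replicate 2 had 10. The gene has several open sites. A region whose strongest summit lay 1812 bp downstream of a start, chr7:6728238-6728866, was called in 4 asynchronous, 2 mitotic and 0 chromosome libraries. A region across the first exon, chr7:6730145-6730361, was called in 4 chromosome libraries and in 0 of the 8 from cells. Usp29, which is transcribed the other way, shared 18 of the 19 promoter summits.

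Mest and Meg3 were the genes with a peak in 4 of 4 chromosome and 0 of 4 asynchronous libraries (6.67%, beside 2.01% of all genes), and neither had one in mitotic cells. Mest, which encodes an enzyme of the hydrolase family, is paternally expressed. Its summits on chromosomes (gene at chr6:30723547-30748465) held 4 and 7 fragments in WT against 5 and 7 in Suv39h dn, all 388 to 447 bp upstream of an alternative start. Meg3 is a maternally expressed long noncoding RNA. Its summits held 8 and 6 fragments in WT against 6 and 10 in Suv39h dn and lay between positions 109543693 and 109543740, in an exon and 758 to 805 bp upstream of an internal start (gene at chr12:109541001-109571726). In lists of 22344 peaks the genes that met the same rule were Igf2 and Grb10 in place of Mest and Meg3 (beside 1.94% of all genes).

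Against mitotic cells, 9 genes had a peak in 4 of 4 chromosome and 0 of 4 mitotic libraries (30.0%, beside 7.42% of all genes). They were Igf2, Cdkn1c, Magel2, Mest, Plagl1, Gnas, Meg3, Airn and Zrsr1. This count was 0 in lists of 1746 peaks (beside 0.0765% of all genes). At most 2 imprinted genes were called in any library of that length, so a count of 9 could not arise there. No imprinted gene was lost from mitotic cells to chromosomes (beside 0.0829% of all genes) or from asynchronous cells to chromosomes (beside 2.01%), and none was gained from asynchronous to mitotic cells (0 of all genes as well).

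Among the growth regulators of this set, Igf2, the fetal growth factor, had summits of 7 and 14 fragments in WT against 8 and 11 in Suv39h dn chromosomes. In asynchronous cells the second replicates alone had a peak, of 5 fragments in WT and 4 in Suv39h dn. The strongest chromosome summit stood at a different place in each library. In WT it lay 5 and 1990 bp downstream of the first start. In Suv39h dn it lay 1296 bp downstream of an internal start in replicate 1 and 382 bp upstream of another in replicate 2. Cdkn1c, an inhibitor of cyclin-dependent kinases, had 7 and 14 fragments in WT against 8 and 11 in Suv39h dn chromosomes, and 6 and 4 in the second asynchronous replicates of WT and Suv39h dn. Its strongest chromosome summit also changed place between libraries, from 1682 bp upstream to 1189 bp downstream of its first start. None of its chromosome regions was called in more than 2 libraries. Grb10, an adaptor that restrains insulin signalling, had 8 and 10 fragments in WT against 8 and 12 in Suv39h dn chromosomes, with 4 to 7 promoter summits per library, the most of any member in 2 of the 4 libraries. In asynchronous cells it had a peak in the second replicates, of 6 fragments in WT and 9 in Suv39h dn.

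Plagl1, a zinc finger transcription factor, had 3 to 6 promoter summits per chromosome library, spread over several of its 11 starts. The strongest held 9 and 10 fragments in WT against 9 and 8 in Suv39h dn, at percentile 86.6 to 94.4 of the called genes. In asynchronous cells WT had 3 and 6 fragments, Suv39h dn replicate 2 had 7 and replicate 1 had no peak. Gnas, which encodes the stimulatory G protein alpha subunit and has 16 annotated starts, had 11 and 6 fragments in WT against 9 and 9 in Suv39h dn chromosomes. Asynchronous WT had 3 and 8 and Suv39h dn replicate 2 had 6.

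Magel2, of the MAGE family, had its summits at different places in cells and on chromosomes. Its strongest asynchronous summits, of 4 and 9 fragments in WT and 10 in Suv39h dn replicate 2, lay 1129 to 1186 bp upstream of its only start. A weaker peak, whose strongest summit lay 26 bp upstream of that start, was called in 2 of the asynchronous libraries. The strongest chromosome summits, of 11 and 12 in WT against 9 and 9 in Suv39h dn, lay 944 to 1662 bp downstream, in the coding exon. Airn, the antisense RNA that silences Igf2r, had 5 and 9 fragments in WT against 6 and 6 in Suv39h dn chromosomes, 303 to 1286 bp past a start, and 6 and 5 in the second asynchronous replicates of WT and Suv39h dn. Impact had 7 and 9 fragments in WT against 7 and 8 in Suv39h dn chromosomes. It had 6 in asynchronous WT replicate 2, 6 and 9 in asynchronous Suv39h dn, and 6 and 7 in the second mitotic replicates of WT and Suv39h dn.

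For 3 of these genes the stretch around the strongest chromosome summit is given, from the same reference and with the same capitals, because the region was called in 3 or 4 chromosome libraries and in none from cells.
Mest, chr6:30732916-30733215: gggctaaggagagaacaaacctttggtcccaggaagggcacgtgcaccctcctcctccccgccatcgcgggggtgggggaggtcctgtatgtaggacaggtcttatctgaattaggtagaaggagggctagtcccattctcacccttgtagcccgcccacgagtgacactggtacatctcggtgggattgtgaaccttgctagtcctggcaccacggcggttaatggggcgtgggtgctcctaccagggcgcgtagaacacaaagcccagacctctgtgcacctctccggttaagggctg
Meg3, chr12:109543543-109543842: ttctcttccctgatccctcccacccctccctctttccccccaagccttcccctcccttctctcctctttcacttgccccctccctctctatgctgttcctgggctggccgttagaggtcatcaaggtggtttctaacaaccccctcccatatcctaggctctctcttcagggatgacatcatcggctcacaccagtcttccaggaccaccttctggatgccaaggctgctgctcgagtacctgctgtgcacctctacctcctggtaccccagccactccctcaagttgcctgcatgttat
Airn, chr17:12742153-12742452: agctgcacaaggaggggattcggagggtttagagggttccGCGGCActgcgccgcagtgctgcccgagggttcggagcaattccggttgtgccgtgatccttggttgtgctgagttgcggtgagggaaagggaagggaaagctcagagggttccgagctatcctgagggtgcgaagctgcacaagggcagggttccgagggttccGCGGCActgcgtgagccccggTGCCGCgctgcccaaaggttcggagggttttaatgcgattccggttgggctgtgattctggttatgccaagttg
The Airn stretch lies in an intron of Airn and of Igf2r and carries 3 hexamers and 22 CpGs. The Mest and Meg3 stretches carry no hexamer, with 13 and 3 CpGs.

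**Figure D3:**
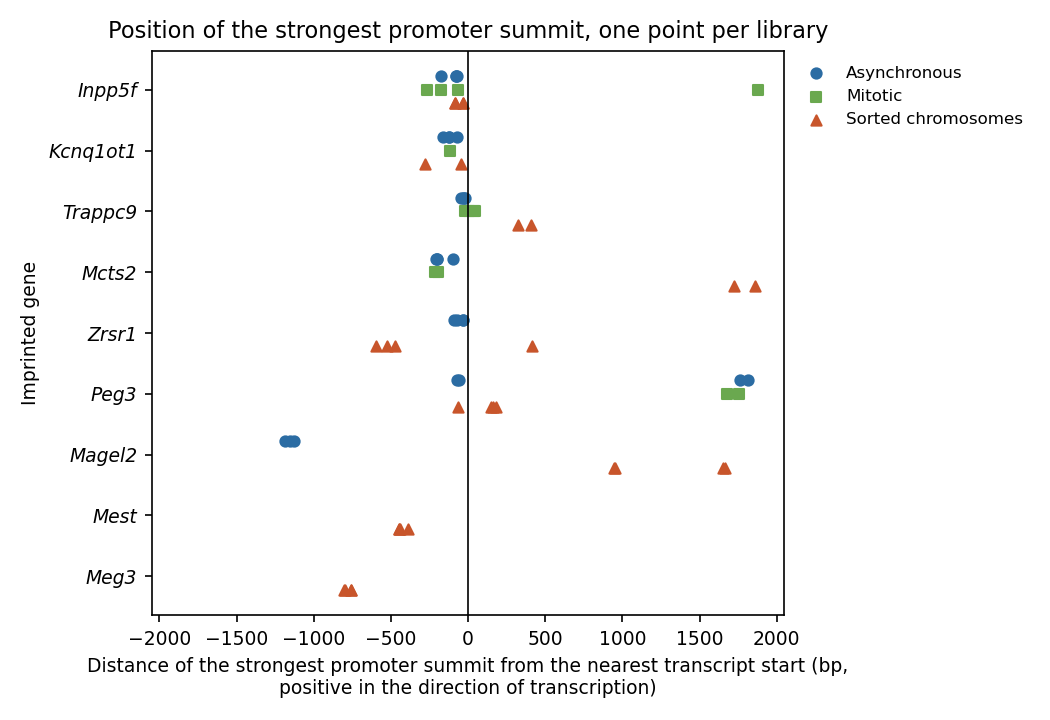
Distance in bp of the strongest promoter summit from the nearest annotated start (horizontal axis, positive in the direction of transcription) for 9 imprinted genes, with 1 point per library that had a peak and a colour and marker for each preparation. The points of Trappc9, Mcts2 and Magel2 from cells and from chromosomes lie apart, and those of Inpp5f lie together except for 1 mitotic library at 1880 bp.

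Over all members, a smaller share of the chromosome summits than of the asynchronous summits lay close to a start. Of their promoter summits, 44.1% to 60% lay within 200 bp of a start in asynchronous cells and 22.9% to 25.0% on chromosomes. All genes showed the same order, with 50.8% to 63.1% and 34.8% to 38.7%. Mitotic libraries had 2 to 8 such summits at the members. Of these, 50.0% and 25.0% in WT and 50.0% in each Suv39h dn library lay within 200 bp, beside 62.9% to 67.4% for all genes. Merging overlapping peaks gave 115 promoter regions at the members. Of these, 60.9% were found on chromosomes alone, 27.8% in cells alone and 11.3% in both, beside 54.1%, 30.3% and 15.6% of 59053 regions at all genes. Among regions called in at least 2 libraries the shares were 46.2%, 28.8% and 25.0% of 52, beside 34.5%, 33.5% and 32%.

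The Zfp57 hexamer was counted in 300 bp around the strongest promoter summit of each gene in each preparation. It was present at 11 of 22 called members on chromosomes (50.0%, beside 17.0% of 19256 called genes), at 6 of 24 in asynchronous cells (25.0%, beside 17.6%) and at 2 of 10 in mitotic cells (20%, beside 19.3%). On chromosomes these were Peg3, Snrpn, Plagl1, Airn, Grb10, Impact and Nap1l5 among the genes with a start at a germline DMR, and Cdkn1c, Phlda2, Magel2 and Igf2r among the others. The median GC content of the chromosome windows was 60.4% for members and 60.3% for all genes, with a median of 14 and 15 CpGs. Whatever the peaks, 10 of 22 members with an entry in the RefSeq promoter table (GRCm38.p6, 300 bp mostly upstream of the start) held the hexamer, which is 45.5% beside 13.1% of 27025 genes. A match of 6 letters does not show that Zfp57 binds there.

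The 17 genes with a start at a germline DMR had a higher mean share of called genes than the 13 others in each preparation. It was 66.2% against 34.6% in asynchronous cells, 22.1% against 11.5% in mitotic cells and 61.8% against 46.2% on chromosomes. They also have more annotated starts, with a median of 6 against 4. The peaks of a gene need not lie at the start that carries the DMR.

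The remaining members were called in few libraries. In the Snrpn domain, Snrpn, which encodes a spliceosomal protein, had a peak in 3 asynchronous libraries and 1 chromosome library, 644 to 888 bp past a start and shared with Snurf. Ndn, of the MAGE family like Magel2, had one in 3 asynchronous, 1 mitotic and 1 chromosome library, 1616 to 1832 bp past its start. Peg10, derived from a retrotransposon, was called in 3 asynchronous and 2 mitotic libraries, and its neighbour Sgce, a sarcoglycan, in 3 asynchronous libraries. Neither had a promoter peak on chromosomes.

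Igf2r, the receptor that removes Igf2, was called in 1 asynchronous and 3 chromosome libraries. Peg13 was called in 2 asynchronous libraries. Phlda2, which restrains placental growth, and Nap1l5, of the nucleosome assembly family, were each called in 1 asynchronous and 1 chromosome library. Zdbf2 was called in 1 asynchronous and 1 mitotic library, the Notch ligand relative Dlk1 in 1 chromosome library and the noncoding RNA Rian in 1 asynchronous library. H19, the noncoding RNA next to Igf2, had no promoter peak in any library, nor did the proteolipid gene Nnat or the retrotransposon-derived Rtl1 (10.0% of the list, beside 28.8% of all genes).

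Genotype was compared within each preparation. The mean number of imprinted genes with a promoter peak was 15.5 in WT and 16.0 in Suv39h dn asynchronous cells, 6.0 and 4.5 in mitotic cells, and 17.0 and 16.0 on chromosomes (n = 2 each). These differences were smaller than the spread between libraries of a group, with a pooled SD of 4.95 genes. The share of all genes was 37.8% and 39.7%, 17.8% and 14.1%, and 40.9% and 39.7% in the same order, and the mitotic value was lower in Suv39h dn there as well. Over the preparations, Suv39h dn minus WT was -0.67 genes. Ndn had the largest imbalance, with 4 of 6 WT and 1 of 6 Suv39h dn libraries (exact permutation p = 0.25 over the 12 libraries). Snrpn leaned the other way, with 1 and 3, and Nap1l5 and Zdbf2 were called in 0 WT and 2 Suv39h dn libraries each, at summits shared with Herc3 and Gm11608.

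A peak in both libraries of a genotype and neither of the other was found only at Grb10 in mitotic cells, where WT had 5 and 4 fragments at 2 different starts and Suv39h dn had no peak (3.33%, beside 0.934% of all genes). The mitotic Suv39h dn lists held 1746 and 14328 peaks and the WT lists 6495 and 13320. No member met this rule for Suv39h dn in mitotic cells (beside 0.226% of all genes). The count was also 0 for WT and for Suv39h dn in asynchronous cells (beside 0.421% and 0.829%) and on chromosomes (beside 2.26% and 1.63%).

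No member passed an adjusted p of 0.05 in any comparison, and neither did any of the 31358 genes. Between preparations, Fisher's exact test of 4 against 4 libraries could not go below p = 0.0286, and 17919 genes at that value would be needed to pass. At an unadjusted 0.05 it took 1 member and 626 genes for mitotic against asynchronous cells, 2 and 1260 for chromosomes against asynchronous cells, and 9 and 2354 for chromosomes against mitotic cells. The two-sided exact permutation test of genotype within preparations took 0 members and 0 genes at that level, with a smallest attainable p of 0.00926.

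Inside the genes, away from the starts, the members together had 8, 27, 13 and 32 summits in the WT and Suv39h dn asynchronous libraries. They had 2, 3, 0 and 0 in mitotic cells and 23, 40, 37 and 24 on chromosomes. Per 100 kb this was 1.11 to 1.35 times the value for all genes on chromosomes and 0.876 to 1.21 times in asynchronous cells. Of the 30 genes, 6 have no sequence beyond 2 kb of a start, 15 had a body summit in some library, and Trappc9, with 471.6 kb the longest, held 34.9% of all member summits.

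Igf2r and Airn, which overlap, had more body summits in every chromosome library than in any asynchronous one (8.33% of 24 members with a body, beside 2.88% of all such genes). Igf2r had 0, 1, 0 and 1 in asynchronous cells, 0 in each mitotic library, and 3 and 5 in WT against 8 and 6 in Suv39h dn chromosomes. Without the 2 kb around the Airn starts the numbers were 0 in all cell libraries and 2, 3, 6 and 4 on chromosomes. Body counts were not compared between genotypes over all genes, so the genotype values of Igf2r have no background beside them and were not tested. Airn had 0, 1, 1 and 0 in asynchronous cells and 2, 6, 3 and 2 on chromosomes. Of the merged body regions, 3 of 19 in Igf2r and 0 of 15 in Airn were called in 2 or more chromosome libraries, so that most sites were not shared between libraries.

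Grb10 had 4 and 4 body summits in WT against 5 and 5 in Suv39h dn asynchronous cells, 2 and 1 in WT against 0 and 0 in Suv39h dn mitotic cells, and 1 and 3 in WT against 3 and 1 in Suv39h dn chromosomes. As for Igf2r, no share of all genes stands beside these genotype values, which were not tested. Sgce and Grb10 had fewer in every chromosome library than in any asynchronous one (8.33%, beside 2.01%), and Grb10 and Trappc9 had fewer in every mitotic library (8.33%, beside 4.57%). Trappc9 had 1, 6, 1 and 10 in asynchronous cells, 0 in mitotic cells and 11, 19, 15 and 10 on chromosomes. Gnas had 0, 4, 2 and 5 in asynchronous cells and 0 in each chromosome library. Against mitotic cells, Plagl1, Igf2r, Airn and Trappc9 had more in every chromosome library (16.7%, beside 9.32%).

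**Figure D4:**
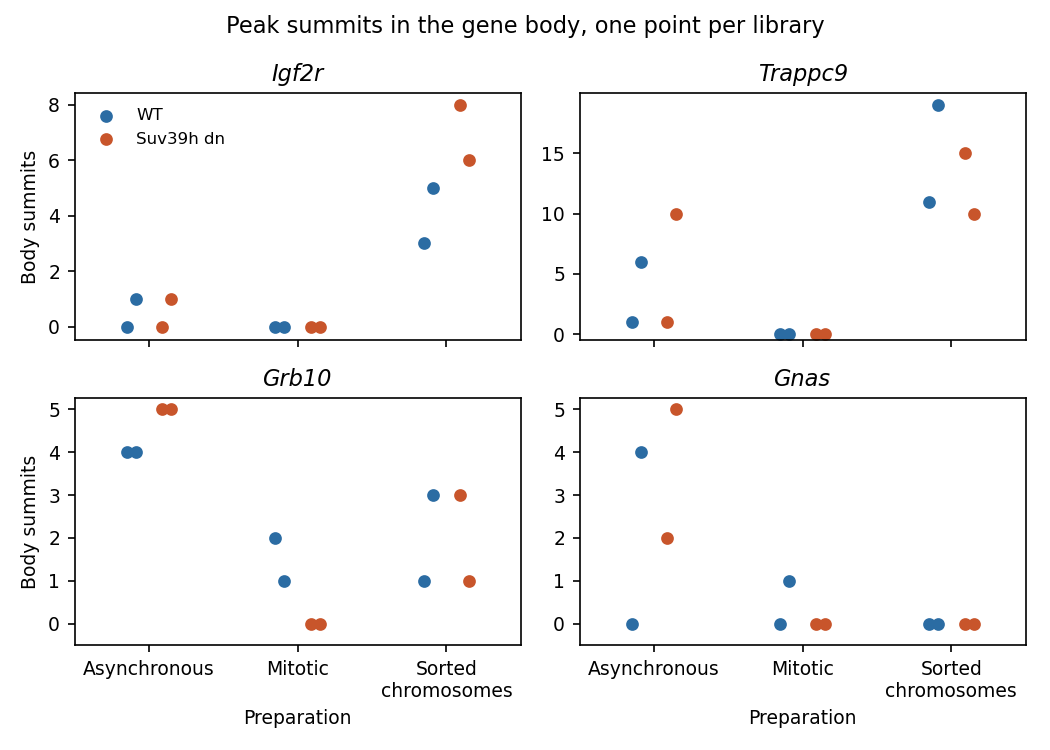
Number of peak summits in the gene body outside 2 kb of a start (vertical axes) in the 3 preparations (horizontal axis) for Igf2r, Trappc9, Grb10 and Gnas, with 1 point per library coloured by genotype. Igf2r has at most 1 in each library from cells and 3 to 8 on chromosomes, where Gnas has 0.

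Of 34 other imprinted genes, 10 to 21 had a promoter peak in asynchronous libraries, 0 to 11 in mitotic and 18 to 23 in chromosome libraries. The means were 46.3%, 14.7% and 60.3% of the list, beside the 38.8%, 16.0% and 40.3% of all genes. At an unadjusted 0.05 of the exact test, 1 was higher and 0 lower on chromosomes than in asynchronous cells, beside 631 and 629 of the 31358 genes. Ube3a and Usp29 were called in 10 libraries each. Of 20 genes that set or keep imprints, 13 to 20 were called in asynchronous cells, 0 to 15 in mitotic cells and 12 to 16 on chromosomes, with means of 82.5%, 40.0% and 71.2%. Tet1, which oxidises methylated cytosine, the heterochromatin protein Cbx5 and Arid4b were called in 11 libraries each. At the unadjusted level 0 were higher and 2 lower on chromosomes than in asynchronous cells.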

How the data were processed

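ATAC-seq was performed by the authors on 12 libraries. Per the labels and the Methods, reads were trimmed (Trim Galore 0.4.4) and aligned to mm10 with bowtie2 2.2.9, duplicate and mitochondrial reads were removed, read ends were shifted, short fragments were kept, and MACS2 was run on each library without pooling. Removal of blacklisted regions is stated and was not tested. Each deposited peak comes with a score, a fold enrichment (a ratio of pileup to background), p- and q-values as −log10, and a summit.

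Summits were assigned to transcript starts of GENCODE vM21, and the gene body was the gene outside 2 kb of its starts. Keeping short fragments and unequal depth can affect which peaks are called. Fragments at a summit were recovered from fold = (k + 1)/(background + 1) and the Poisson p-value, for 432640 of 437289 peaks with a −log10 p under 60, to within 0.001. The lowest recovered background, 0.149 to 0.328 fragments per base, stands for relative depth.

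Each gene was tested by Fisher's exact test between preparations and by exact permutation of genotypes within preparations (216 arrangements), two-sided, with Benjamini-Hochberg adjustment over 31358 genes. Lists of genes were described by counts, with no test. Values in every library are given for members called in all 4 libraries of a preparation or in both libraries of 1 genotype and neither of the other. The members and lists were chosen with earlier results of these data known. Alternatives were distances of 1 kb and 500 bp, q at or under 1e-05, lists of equal length, the nearest start alone, a replicate block, a percentile of the p-value, protein-coding genes as the background, and leaving out each library. The functions were tested on simulated data. The authors' differential test was not run, since the lists hold no read counts. Python 3.11.15, numpy 2.4.6, scipy 1.17.1, pandas 2.3.3, pysam 0.24.0 and matplotlib 3.10.9 were used.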

Additional observations from a re-analysis of the deposited data

Results flagged for a closer look

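At Inpp5f the strongest promoter summit held 10 and 10 fragments in WT against 4 and 10 in Suv39h dn mitotic cells. The gap of Suv39h dn Mitotic replicate 1 to the others made up 1.0 of the range of the group, above Dixon's 95% critical value. That library lacks the peak at the first start and was called through an internal start. Of 27 groups of 4 libraries examined in this way, 1 passed, and chance passes about 1 in 20.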

How the results depend on the processing

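Differences in the mean number of imprinted genes with a promoter peak changed when the lists were shortened. Mitotic minus asynchronous was -10.5 genes as reported and 0.5 in lists of 1746 peaks (1.0 in lists of 6495 peaks, without Suv39h dn Mitotic replicate 1). Chromosomes minus mitotic was 11.25 as reported, 0.25 and 2.25 in the same lists, and 4.25 at q at or under 1e-05. Lists of 1746 peaks left 0 to 2 imprinted genes called in any library. Differences or gains of the size reported could not appear there, so those lists cannot decide whether they persist. Chromosomes minus asynchronous was 0.75 as reported, 2.75 in lists of 22344 peaks and -2.5 at that q, so that its sign was not stable. The 9 genes gained from mitotic cells to chromosomes became 2 at that q and 0 in lists of 1746 peaks (beside 0.0765% of all genes). The 2 gained from asynchronous cells became 0 at that q. The gene lost from asynchronous to mitotic cells was no longer counted at that q or in lists of 1746 peaks (0 each, beside 0.115% of all genes in those lists). Mcts2 was lost from asynchronous cells to chromosomes (a count of 1 in place of 0) at a distance of 1 kb and of 500 bp. The share of all genes gained or lost at that q and at those distances was not computed. The counts there have no background beside them and are no result about the imprinted genes. The share of protein-coding genes with a promoter peak was 46.1% in asynchronous cells, against 38.8% of all genes. It was 19.8% against 16.0% in mitotic cells and 48.0% against 40.3% on chromosomes.

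With each library left out in turn, mitotic minus asynchronous ranged from -12.75 to -8.08 genes, chromosomes minus mitotic from 10.2 to 12.2, chromosomes minus asynchronous from -1.5 to 3.17 (0.75 as reported) and Suv39h dn minus WT from -3.0 to 1.67. The genes lost from asynchronous to mitotic cells ranged from 1 to 5, beside 2.0% to 4.47% of all genes. There were 5 without Suv39h dn Asynchr replicate 1 (Magel2, Sgce, Plagl1, Gnas and Zrsr1, beside 4.41%). There were 2 without WT Asynchr replicate 1 (beside 4.47%) or without WT Mitotic replicate 2 (beside 3.41%). Those lost to chromosomes ranged from 0 to 2, with 2 without Suv39h dn Asynchr replicate 1 (Peg10 and Sgce, beside 2.98%). Those gained on chromosomes stayed at 2 against asynchronous cells, beside 2.1% to 3.08% of all genes. Against mitotic cells they ranged from 9 to 10, beside 7.48% to 10.2%. The share of all genes thus also moved when a library was left out. The number of members past an adjusted p was 0 throughout, in a design too small to pass with a library left out.

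By their labels, libraries with the same number share only that number. The first replicate had the lower background in each of the 6 groups. On chromosomes it was 0.187 in WT and 0.198 in Suv39h dn, against 0.328 and 0.268 in the second replicates. Whether same-number libraries were handled together is not stated. Deviations of libraries with the same number correlated at 0.298 between genotypes in asynchronous cells, 0.155 in mitotic cells and 0.0193 on chromosomes. The replicate block left 0 members past an adjusted p and the differences at -10.5, 0.75, 11.25 and -0.67. With the percentile of the p-value as the measure, 0 members passed in the test of genotype, with a smallest adjusted p of 1.0 by Benjamini-Hochberg and an exact permutation p of 0.0556. The other 161 of 178 recomputed values stayed within the limits set, which were 1 SD (4.95 genes) for differences and 1.5 times for counts. Many of them are counts of members past an adjusted p, which were 0 in every setting and had little room to differ. The limit for differences is also wide. Chromosomes minus asynchronous stayed within it at -2.5 genes (q at or under 1e-05) and at 3.17 (without Suv39h dn Asynchr replicate 2). This tally is therefore no measure of stability. The alternatives for genes gained, for adjusted p between preparations and without the shortest mitotic list were chosen after seeing the data.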

Other observations

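In an intron of Trappc9, 6 merged regions lay side by side between positions 72996456 and 72998112 of chromosome 15, called in 1 to 4 of the chromosome libraries and in 0 of the 8 libraries from cells. H19, with no promoter peak, had a summit 32 to 34 kb upstream of a start, towards Igf2, in 4 of 4 asynchronous, 2 of 4 mitotic and 3 of 4 chromosome libraries. The nearest summit to Nnat was 5.59 kb away and to Rtl1 12.4 kb away in the library where each was closest. These places were chosen after their values were seen.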
